A study of Mus musculus with 10 samples.

Results

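Fgf21, the gene of the hormone fibroblast growth factor 21, and the genes of its receptor components were followed across 10 mouse liver RNA-seq libraries. The members were taken by symbol: Fgf21, Klb, Fgfr1, Fgfr2, Fgfr3 and Fgfr4, which are 6 of the 41388 genes listed, and all 6 were among the 13444 genes tested. The mice were littermates of about 12 wk on the C57B/6J strain, kept on aspen bedding while food was withheld. WT fasted livers (n = 3) were taken after 24 h without food, and NAMPT LKO fasted livers (n = 5) after the same fast. WT refed livers (n = 2) were taken after 22 h without food and 2 h of refeeding, and the study's text calls these mice fed and gives another fasting time. The study's WT mice carried LoxP-flanked Nampt alleles without Cre. The NAMPT LKO mice were bred with Albumin-cre, in which the Albumin promoter drives excision without a timed induction. The study describes this excision as specific to hepatocytes, and excision in other liver cells was not measured here. No NAMPT LKO refed libraries are part of the design, so the response to refeeding can be read in WT livers alone. Livers of mice that were not fasted are not part of it either. A rise during fasting and a fall during refeeding therefore cannot be told apart.

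FGF21 is a hormone that the liver secretes in response to nutrient stress, and it acts on adipose tissue, brain and other organs. It signals through an FGF receptor, chiefly FGFR1, and only where the co-receptor beta-klotho, the product of Klb, is present. The liver itself is known for beta-klotho with FGFR4, the pair through which the intestinal hormone FGF15 restrains bile acid synthesis. In hepatocytes, Fgf21 transcription is known to respond to the fatty acid receptor PPARA during fasting, to ATF4 during amino acid or ER stress, and to ChREBP after carbohydrate.

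Fgf21 lies at chr7:45613907-45615490 on the minus strand of GRCm38, with 930 exonic bases in 3 blocks and no exonic overlap with another gene. The 250 bases before its start (RefSeq, GRCm38.p6, chr7:45615491-45615740, minus strand) are shown because Fgf21 is the member whose mRNA differed between feeding states. Capitals mark, in order, a C/EBP-ATF response element, an E-box and a TATA box.

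Fgf21 promoter: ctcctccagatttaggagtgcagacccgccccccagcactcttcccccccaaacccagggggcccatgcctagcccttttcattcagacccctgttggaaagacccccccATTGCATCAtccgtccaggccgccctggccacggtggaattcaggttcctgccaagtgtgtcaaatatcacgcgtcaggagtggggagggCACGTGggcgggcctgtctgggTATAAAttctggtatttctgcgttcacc

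The search covered both strands of windows of 300 bases, 250 before and 50 after each start. The C/EBP-ATF response element, TGATGCAAT, to which ATF4 can bind, was found on the reverse strand 140 to 132 bases before the Fgf21 start, and 0.192% of all 32851 promoter windows hold it. The E-box CACGTG, a sequence that the ChREBP-MLX family can bind, stood 50 to 45 bases before the start and occurs in 7.15% of windows. The TATA box TATAAA stood 28 to 23 bases before the start and occurs in 13.6%. None of the 3 matches overlapped another. The cAMP response element TGACGTCA (1.79% of windows) and the direct repeat that PPARA with RXRA can bind, 2 copies of AGGTCA with 1 base between them (0.0396%), were not found in these letters. Windows were given for 5 of the 6 members, and among the 5 windows of Klb, Fgfr2, Fgfr3 and Fgfr4 the single match to any of these motifs was an E-box 28 to 33 bases after the Fgfr2 start. A match is a description of the sequence and not a site of binding.

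Total counts per library ran from 30603080 to 43434139. Mitochondrial genes held 12.0% to 12.5% of counts in WT refed, 7.42% to 11.6% in WT fasted and 10.4% to 21.1% in NAMPT LKO fasted libraries, with library 5 of the last group highest. Nampt, the rate-limiting enzyme of NAD+ salvage and the gene removed, was at 63.0 to 141 normalized CPM in WT fasted, 67.8 to 78.0 in WT refed and 11.8 to 15.3 in NAMPT LKO fasted livers, where normalized CPM is the count scaled by the TMM-adjusted library total. Its log2 fold change in NAMPT LKO vs. WT fasted livers was -2.81 (SE 0.22, adjusted p = 0.00102, edgeR quasi-likelihood test), and it was the only gene called in that comparison. The hepatocyte markers Alb, Apoa1, Ttr, Cps1, Tat, Asgr1 and Hnf4a were all detected, with 0 of 7 called in any comparison. In NAMPT LKO vs. WT fasted livers 0 of 7 were above 0, against 50.1% of all genes, with a median log2 fold change of -0.12. The part of hepatocyte content in the levels of the members was not tested. These are pieces of whole liver, so fewer cells of a type and less RNA per cell cannot be told apart.

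Fgf21, the ligand, was higher in WT fasted than in WT refed livers. It had 56 and 20 counts in the 2 WT refed libraries, or 1.25 and 0.461 normalized CPM. In the WT fasted libraries it had 313, 120 and 367 counts, or 7.50, 3.72 and 8.32 normalized CPM. Every WT fasted library stood above both refed libraries, as for 24.5% of all genes in that direction, and library 2 was the lowest of the fasted WT livers. The difference was 7.57-fold (log2 fold change 2.92, SE 0.53, 95% interval 1.74 to 4.10, adjusted p = 0.00987, edgeR). In this comparison 7.04% of all genes were called and 2.68% were called higher, where called means an adjusted p at or under 0.05. Without WT refed library 2 the log2 fold change was 2.37 and the call was lost (adjusted p = 0.121), while without WT refed library 1 it was 3.80 (adjusted p = 0.0343). All 6 Kupffer and macrophage markers also had a fold change above 0 in this comparison, against 53.6% of all genes (median log2 fold change 0.59, 0 called). The part of these markers in the result was not tested.

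Fgf21 was not separated between NAMPT LKO and WT fasted livers. The NAMPT LKO 5 libraries had 331, 416, 585, 200 and 338 counts, or 10.7, 13.3, 14.0, 5.43 and 9.99 normalized CPM. Library 4 fell inside the WT fasted range and the other 4 stood above it. The log2 fold change of 0.71 over WT fasted livers (SE 0.37) had a 95% interval of -0.096 to 1.52, an unadjusted p of 0.0784 and an adjusted p of 0.837 (edgeR). The interval reaches a decrease of no more than 0.096 on the log2 scale and an increase of up to 1.52. The value was 0.43 without WT fasted library 2, which has the lowest Fgf21 of its group.

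Against WT refed livers, NAMPT LKO fasted livers had 12.4-fold more Fgf21 mRNA, a log2 fold change of 3.63 (SE 0.53, 95% interval 2.46 to 4.80, adjusted p = 0.00231, quasi-likelihood test). All 5 NAMPT LKO libraries stood above both refed libraries (15.7% of all genes), in a comparison in which 11.2% of all genes were called and 4.65% were called higher. The WT fasted and NAMPT LKO fasted groups share these refed controls, so the 2 differences are not independent of each other.

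**Figure D1:**
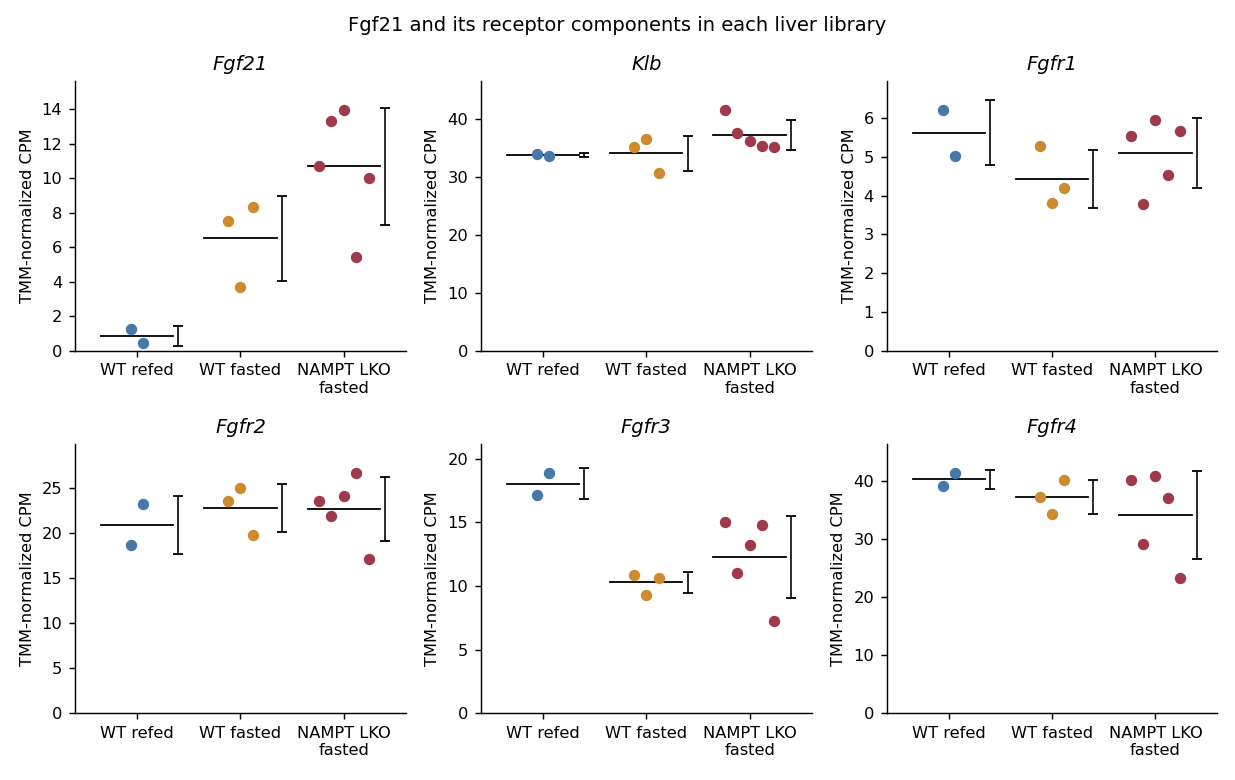
TMM-normalized CPM (y axis) of each member in each library (points), by group (x axis), with the group mean as a line and the SD as a bar beside it. Fgf21 sits at 0.461 to 1.25 in WT refed, 3.72 to 8.32 in WT fasted and 5.43 to 14.0 in NAMPT LKO fasted livers, whereas Klb stays between 30.6 and 41.5 throughout.

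Klb, the beta-klotho co-receptor, was the steadiest member. It lies at chr5:65348386-65384003 on the plus strand. Its normalized CPM was 33.9 and 33.5 in WT refed, 35.0, 36.4 and 30.6 in WT fasted, and 41.5, 37.5, 36.2, 35.4 and 35.2 in NAMPT LKO fasted livers, so that the highest library was 1.36-fold above the lowest. WT fasted and refed livers overlapped, with a log2 fold change of 0.013 and a 95% interval of -0.25 to 0.28. NAMPT LKO and WT fasted livers also overlapped (log2 fold change 0.13, SE 0.096, 95% interval -0.083 to 0.34). All 5 NAMPT LKO libraries stood above both refed libraries, as 15.7% of all genes did, but the difference of 0.14 (SE 0.11, 95% interval -0.10 to 0.38) was not called (adjusted p = 0.467, quasi-likelihood test). The summed level of 7 stellate and fibroblast markers was 224 to 299 CPM in NAMPT LKO fasted, 181 to 235 in WT fasted and 184 to 186 in WT refed livers, and its part in the Klb levels was not tested.

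Fgfr4, the main hepatocyte FGF receptor and partner of beta-klotho in the response to FGF15, lies at chr13:55152640-55168759 on the plus strand. Refed livers had 39.1 and 41.4 normalized CPM and WT fasted livers 37.3, 34.3 and 40.2. The 5 NAMPT LKO libraries spread further, from 23.3 in library 5 through a median of 37.1 to 40.8. The groups overlapped in every comparison. The log2 fold changes were -0.11 for WT fasted vs. refed (95% interval -0.58 to 0.36), -0.13 for NAMPT LKO vs. WT fasted (-0.50 to 0.25) and -0.24 for NAMPT LKO fasted vs. WT refed (-0.67 to 0.18). The lowest library, NAMPT LKO library 5, is also the one with the highest mitochondrial share, 21.1%, and the part of that share in its receptor levels was not tested.

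Fgfr3 was the receptor whose levels were furthest apart between feeding states. It lies at chr5:33721724-33737068 on the plus strand and encodes a receptor that can also pair with beta-klotho. Refed livers had 17.2 and 18.9 normalized CPM and WT fasted livers 10.9, 9.33 and 10.6, with no overlap, as for 25.1% of all genes in that direction. The log2 fold change of -0.81 (SE 0.25, 95% interval -1.37 to -0.25) had an unadjusted p of 0.00884 but an adjusted p of 0.0845 (edgeR quasi-likelihood), just outside the threshold of 0.05. Of 19 alternatives, 6 called it, with adjusted p from 0.0018 to 0.0453. Among these were the exact test of edgeR, DESeq2, limma and removal of the GC trend. The fit of these 5 libraries alone and the fit without NAMPT LKO library 5 also called it. The other 13 did not, among them each fit without 1 WT fasted library (adjusted p 0.134 to 0.196, quasi-likelihood test). Without WT refed library 1 or 2 the log2 fold change was -0.89 and -0.75.

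NAMPT LKO fasted livers had 15.0, 11.1, 13.2, 14.8 and 7.27 normalized CPM of Fgfr3. All 5 were below both refed libraries, as 17.8% of all genes were, while 4 of 5 were above the highest WT fasted library and library 5 was below the lowest. The log2 fold change was -0.56 vs. WT refed (SE 0.23, adjusted p = 0.153) and 0.25 vs. WT fasted (SE 0.21, 95% interval -0.21 to 0.71, adjusted p = 0.854), both by the quasi-likelihood test.

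Fgfr2 and Fgfr1 gave smaller differences. Fgfr2, a receptor of FGF7 and FGF10, is annotated at chr7:130162451-133123350 on the minus strand, and 314 of its exonic bases overlap Ctbp2 on the same strand, so reads there are uncertain. It ranged from 17.1 to 26.8 normalized CPM over all libraries, with log2 fold changes of 0.12 (95% interval -0.29 to 0.53) for WT fasted vs. refed and -0.0066 (-0.34 to 0.32) for NAMPT LKO vs. WT fasted. Fgfr1, the main FGF21 receptor of adipose tissue, lies at chr8:25513654-25575714 on the plus strand and shares 164 exonic bases with Gm16159 on the opposite strand. Its 3.78 to 6.21 normalized CPM overlapped between all groups, with log2 fold changes of -0.34 (95% interval -0.86 to 0.17) for WT fasted vs. refed and 0.20 (-0.22 to 0.62) for NAMPT LKO vs. WT fasted.

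Counted together, 0 of the 5 receptor components were called in WT fasted vs. WT refed (7.04% of all genes), 0 of 5 in NAMPT LKO vs. WT fasted (0.00744%) and 0 of 5 in NAMPT LKO fasted vs. WT refed livers (11.2%) by edgeR's quasi-likelihood test. The count with an unadjusted p under 0.05 was 1, Fgfr3, in WT fasted vs. WT refed (22.3% of all genes) and in NAMPT LKO fasted vs. WT refed livers (26.1%), and 0 between the fasted groups (6.03%). Under limma and after removal of the GC trend, Fgfr3 was also called in NAMPT LKO fasted vs. WT refed livers, with adjusted p of 0.0113 and 0.0499. Their median log2 fold changes were -0.11, 0.13 and -0.14 in that order, beside 0.037, 0.00025 and 0.032 over all genes tested.

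**Figure D2:**
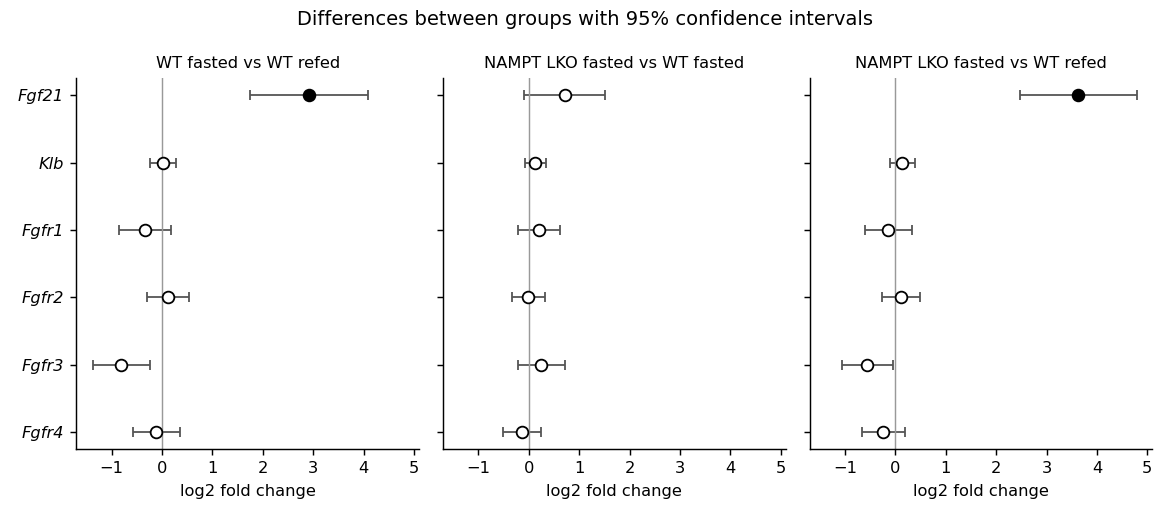
Log2 fold change (x axis) of each member (y axis) in the 3 comparisons, with 95% confidence intervals as bars; filled points have an adjusted p at or under 0.05. Fgf21 is filled in both comparisons with WT refed livers, at 2.92 and 3.63, and the interval of Fgfr3 lies below 0 in both, at -0.81 and -0.56, without passing the adjusted threshold.

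Levels were set against each other per length, as RPKM, which divides the CPM of a gene by its exonic kilobases. Fgf21 averaged 0.952 ± 0.624 RPKM (SD, n = 2) in WT refed, 6.99 ± 2.81 (n = 3) in WT fasted and 11.2 ± 3.88 (n = 5) in NAMPT LKO fasted livers. By that mean it stood above 22.3%, 66.1% and 76.9% of the tested genes, respectively. Klb averaged 10.02 ± 0.118, 9.70 ± 0.642 and 10.4 ± 1.29 RPKM in the same order. Thus the ligand's mRNA was below that of the co-receptor in both refed livers, and above it in 1 of 3 WT fasted and 3 of 5 NAMPT LKO fasted livers.

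Among the receptors the order per length was Fgfr4, Fgfr2, Fgfr3 and Fgfr1, and each was above the next in 10 of 10 libraries. Over all libraries Fgfr4 averaged 10.2 RPKM, Fgfr2 3.07, Fgfr3 1.85 and Fgfr1 0.608. Klb and Fgfr4 had no fixed order, with Klb higher in 4 of 10 libraries. Fgfr1, the receptor through which FGF21 acts in adipose tissue, was above only 14.2% to 18.3% of tested genes in any group, whereas Fgfr4 was above at least 73.4%.

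Fgfr4 made up 65.4% and 64.0% of the summed RPKM of the 4 receptors in WT refed, 65.7%, 64.7% and 70.3% in WT fasted, and 64.9%, 61.7%, 65.8%, 62.1% and 61.5% in NAMPT LKO fasted livers. The mean share was 3.71 percentage points lower in NAMPT LKO than in WT fasted livers, and the exact permutation test (two-sided, n = 5 and 3) gave p = 0.179, where the smallest p possible is 0.0357. Fgfr3 held 14.7% and 15.0% in WT refed, 9.85%, 9.02% and 9.55% in WT fasted, and 9.84% to 12.7% in NAMPT LKO fasted livers, so that the refed values were above all fasted ones.

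The ratio of Klb to Fgfr4 RPKM was 0.886 and 0.827 in WT refed, 0.961, 1.08 and 0.778 in WT fasted, and 1.06, 1.32, 0.908, 0.975 and 1.54 in NAMPT LKO fasted livers. The highest value was that of NAMPT LKO library 5, where Fgfr4 was lowest. The log2 ratio was higher by 0.29 in NAMPT LKO than in WT fasted livers, which the exact permutation test did not separate (two-sided, n = 5 and 3, p = 0.286).

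**Figure D3:**
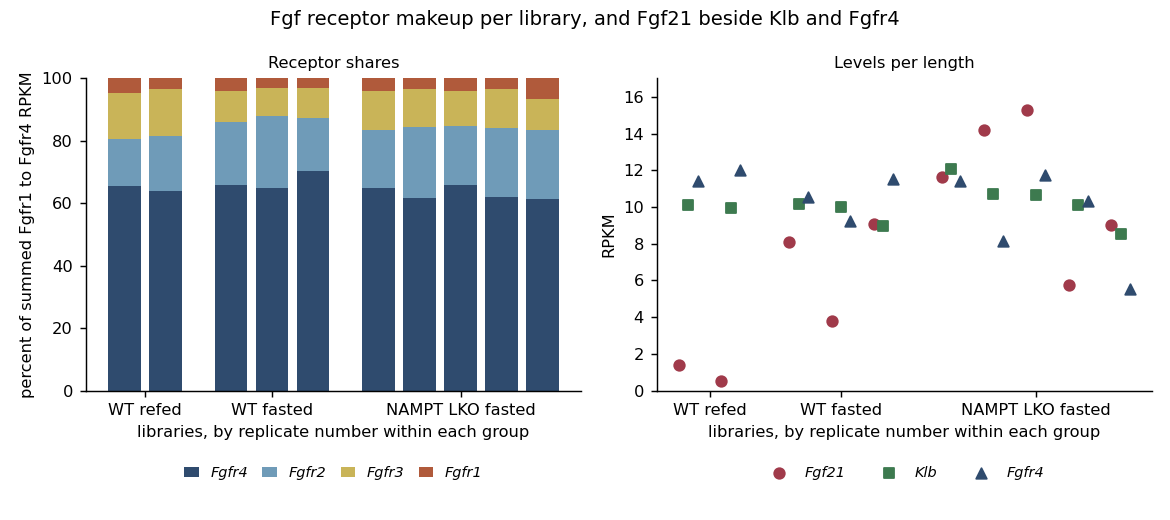
Left, each receptor's percent of the summed Fgfr1 to Fgfr4 RPKM (y axis, stacked bars, 1 bar per library); right, RPKM (y axis) of Fgf21, Klb and Fgfr4 in the same libraries (points). Fgfr4 makes up 61.5% to 70.3% of every bar, the Fgfr3 part is largest in the refed libraries at 14.7% and 15.0%, and Fgf21 moves from 0.510 RPKM in the lowest refed to 15.3 in the highest NAMPT LKO library while Klb stays between 8.52 and 12.1.

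Counts of called list genes rest on both refed libraries: without WT refed library 1 or 2 the test called 194 and 107 of all genes in WT fasted vs. WT refed livers, in place of 946, and 347 and 227 in NAMPT LKO fasted vs. WT refed livers, in place of 1510. Of 7 endocrine partners of the FGF21 system, 3 passed the filter on low counts. Fgf15, the intestinal ligand of the Klb and Fgfr4 pair, had 0 counts in every library, which allows up to 0.0691 to 0.0980 CPM depending on the library, for counting error only. Kl, the co-receptor of FGF23, had at most 2 counts, Fgf23 at most 4, and Fap, a protease that cleaves FGF21, at most 6. Fgfrl1, a receptor-like protein without a kinase domain, was at 16.6 and 21.2 normalized CPM in WT refed, 31.5 to 38.0 in WT fasted and 16.3 to 37.9 in NAMPT LKO fasted livers. Its log2 fold change of 0.90 in WT fasted vs. WT refed livers (SE 0.29) was not called (adjusted p = 0.0914, quasi-likelihood test).

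The bile acid enzymes Cyp8b1 and Cyp7a1 are repressed by the FGF15 pathway. Cyp8b1, which directs synthesis toward cholic acid, was at 581 and 584 CPM in WT refed, 812 to 1203 in WT fasted and 720 to 1184 in NAMPT LKO fasted livers. Its log2 fold change was 0.77 in both comparisons with refed livers, called for NAMPT LKO (adjusted p = 0.0477) and not for WT fasted livers (adjusted p = 0.0792), and 0.0029 between the fasted groups (adjusted p = 0.999, quasi-likelihood test). The NAMPT LKO call was lost without either refed library. Without NAMPT LKO library 5, 2 of the 3 tested partners were called higher in both comparisons with refed livers. The fit of all 10 libraries called 2.68% and 4.65% of all genes higher there, and the share without library 5 is not given. Cyp7a1, the rate-limiting enzyme of bile acid synthesis, varied from 58.3 to 328 CPM within WT fasted and from 101 to 536 within NAMPT LKO fasted livers, around the refed values of 225 and 254, and was not called in any comparison. Of 19 other FGF ligands, only Fgf1, which binds all FGF receptors, passed the filter, at 130 to 217 CPM with no call in any comparison.

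Downstream of the receptors, 0 of 18 signalling genes, which encode adaptors such as Frs2, RAS proteins and kinases, were called in WT fasted vs. WT refed livers (7.04% of all genes; quasi-likelihood test), with a median log2 fold change of 0.095. The lowest p values were those of the kinase gene Braf (log2 fold change 0.36, SE 0.14, adjusted p = 0.156), the adaptor Shc1 (-0.40, SE 0.17, adjusted p = 0.183) and the phospholipase Plcg1 (0.23, SE 0.12, adjusted p = 0.292). At an unadjusted p, Braf and Shc1 had 0.0259 and 0.0349. Braf was the 1 gene of the 18 called in NAMPT LKO fasted vs. WT refed livers (0.45, adjusted p = 0.0474), where 11.2% of all genes were called, and that call was lost without either refed library. Between the fasted groups 0 of 18 were called (0.00744% of all genes), and Hras (-0.19) and Map2k1 (-0.17) had the lowest p of those named, unadjusted 0.0829 and 0.104.

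Of 12 tested feedback and response genes of FGF-ERK signalling, 1 was called in WT fasted vs. WT refed livers, where 7.04% of all genes were called and 4.36% were called lower. Etv5, an ETS factor that FGF signalling is known to induce, was lower by 1.06 on the log2 scale (SE 0.28, adjusted p = 0.0416, quasi-likelihood test). It was at 5.99 and 6.16 CPM in WT refed and 2.39 to 3.63 in WT fasted livers, and the call was lost without either refed library. It was at 2.01 to 3.42 CPM in NAMPT LKO fasted livers, with -1.16 vs. WT refed (adjusted p = 0.0136; 6.58% of all genes called lower) and -0.091 vs. WT fasted livers (adjusted p = 0.952). The call of Etv5 in NAMPT LKO fasted vs. WT refed livers was also lost when either refed library was left out. In WT fasted vs. WT refed livers Spry4, an inhibitor of the pathway, had -0.59 (adjusted p = 0.389), the immediate early gene Fos 1.68 (adjusted p = 0.152) and the phosphatase gene Dusp5 0.45 (adjusted p = 0.574).

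Of 18 genes known to regulate Fgf21 transcription, all tested, Sirt1 was called higher and Xbp1 and Ddit3 lower in WT fasted vs. WT refed livers (2.68% and 4.36% of all genes), with a median log2 fold change of -0.014. Sirt1, an NAD+-dependent deacetylase, was at 6.48 and 7.10 CPM in WT refed and 9.98 to 11.0 in WT fasted livers (log2 fold change 0.63, SE 0.15, adjusted p = 0.0335). Xbp1, a transcription factor of the unfolded protein response, was at 257 and 270 CPM in refed and 115 to 132 in fasted livers (-1.09, SE 0.18, adjusted p = 0.00641). Ddit3, which encodes the ER stress factor CHOP, was at 13.4 and 18.1 CPM in refed and 5.12 to 10.5 in fasted livers (-1.16, SE 0.30, adjusted p = 0.0412). These tests were edgeR's quasi-likelihood test, and all 3 calls were lost when either refed library was left out. Without NAMPT LKO library 5 the list had 4 genes called higher and 2 lower, in a fit whose share of all genes called is not given.

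The coactivator gene Ppargc1a was at 6.48 and 7.19 CPM in WT refed, 12.4 to 18.0 in WT fasted and 9.64 to 38.4 in NAMPT LKO fasted livers, with log2 fold changes of 1.13 for WT fasted (adjusted p = 0.149) and 1.76 for NAMPT LKO vs. WT refed livers (adjusted p = 0.0236, quasi-likelihood test). Mlx, the partner of ChREBP, had -0.41 and -0.76 in the same comparisons (adjusted p = 0.17 and 0.00882). In NAMPT LKO fasted vs. WT refed livers, 4 of the 18 regulators were called higher (4.65% of all genes) and 3 lower (6.58%). All of the higher calls, that of Ppargc1a among them, were lost when either refed library was left out, and not all of the lower calls held. Between the fasted groups 0 of 18 regulators were called, with a median log2 fold change of -0.015, and Mlx (-0.35, unadjusted p = 0.022) and Ppargc1a (0.62, unadjusted p = 0.0915) had the lowest p values.

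PPARA targets had fold changes above 0 in fasted vs. refed livers, as Fgf21 did. Of 18 genes, 18 had a fold change above 0 in WT fasted vs. WT refed livers, against 53.6% of all genes tested, with a median log2 fold change of 0.40 beside 0.037. The quasi-likelihood test called 3 of them higher (2.68% of all genes) and none lower. Angptl4, an inhibitor of lipoprotein lipase, was at 43.0 and 54.1 CPM in WT refed and 239 to 272 in WT fasted livers (log2 fold change 2.38, SE 0.21, adjusted p = 0.000253). Pdk4, a kinase that shuts off pyruvate dehydrogenase, was higher by 3.00 (SE 0.51, adjusted p = 0.00715) and the lipid droplet gene Plin2 by 1.09 (SE 0.18, adjusted p = 0.00663). Without either refed library the count of calls was 1, and without NAMPT LKO library 5 it was 6.

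In NAMPT LKO fasted livers the same list had a median log2 fold change of 0.46 over WT refed livers, with 18 of 18 above 0 (53.2% of all genes) and 8 called higher (4.65% of all genes; 1 without either refed library). Over WT fasted livers the median was 0.061 with 0 of 18 called, and 13 of 18 were above 0 against 50.1% of all genes. The peroxisomal oxidation gene Ehhadh (0.48, SE 0.18) and the thioesterase gene Acot2 (0.42, SE 0.26) had the lowest p values between the fasted groups, with adjusted p of 0.801 and 0.837.

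Among the 14 tested ATF4 targets, Ddit4, Sesn2 and Trib3 were called higher in WT fasted vs. WT refed livers (2.68% of all genes) and none lower, with a median log2 fold change of 0.47. Ddit4 and Sesn2, both inhibitors of mTORC1, were higher by 2.54 (SE 0.43, adjusted p = 0.00674) and 1.77 (SE 0.39, adjusted p = 0.0225), and the pseudokinase gene Trib3 by 1.11 (SE 0.26, adjusted p = 0.0273, quasi-likelihood test). The count was 0 without either refed library. Ddit4 was at 3.00 and 4.50 CPM in WT refed, 18.7 to 23.5 in WT fasted and 6.00 to 17.6 in NAMPT LKO fasted livers, with no overlap between the fasted groups, as for 2.12% of all genes in that direction. Its log2 fold change there was -1.10 (SE 0.30, unadjusted p = 0.00389), but the adjusted p was 0.761 and 0 of 14 were called. Phgdh, a serine synthesis gene, had -3.09 in the same comparison from 1 library, with 4.46 CPM in the highest WT fasted library and at most 0.266 in the other 2 fasted WT or any NAMPT LKO library.

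The ChREBP and refeeding list holds genes of glycolysis and lipogenesis. In WT fasted vs. WT refed livers, 1 of 12 was called higher (2.68% of all genes), with a median log2 fold change of -0.20. Txnip, a ChREBP target that restrains glucose uptake, was at 35.0 and 40.5 CPM in WT refed and 49.0 to 133 in WT fasted livers (1.34, SE 0.32, adjusted p = 0.0302, quasi-likelihood test). The lipogenic gene Thrsp had -1.19 (adjusted p = 0.0624). The call of Txnip was lost without either refed library. Between the fasted groups 0 of 12 were called, and Txnip (0.39) and the fructokinase gene Khk (-0.21) had adjusted p of 0.839 and 0.837.

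The growth hormone axis, which FGF21 is known to restrain in liver, had 1 gene called higher (2.68% of all genes) and 2 lower (4.36%) of 7 in WT fasted vs. WT refed livers. Igfbp1, a binding protein of IGF1 that insulin represses, was at 0.761 and 1.75 CPM in WT refed and 91.3 to 563 in WT fasted livers (log2 fold change 7.65, SE 1.13, adjusted p = 0.00376). Igfals, which stabilizes circulating IGF1, was lower by 1.91 (SE 0.29, adjusted p = 0.00402) and the receptor gene Ghr by 0.59 (SE 0.16, adjusted p = 0.0497, quasi-likelihood test). Without WT refed library 1 the counts were 1 higher and 1 lower, without library 2 they were 0, and without NAMPT LKO library 5 they were 2 higher and 3 lower. Igf1 (-0.66, adjusted p = 0.0597) and Socs2, a feedback inhibitor of growth hormone signalling (-2.39, adjusted p = 0.067), were not called. Between the fasted groups 0 of 7 were called, with 0.34 for Igf1 (SE 0.15, unadjusted p = 0.0483) and 1.20 for Socs2 (SE 0.59, unadjusted p = 0.0672), which are at adjusted p of 0.827 and 0.837.

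**Figure D4:**
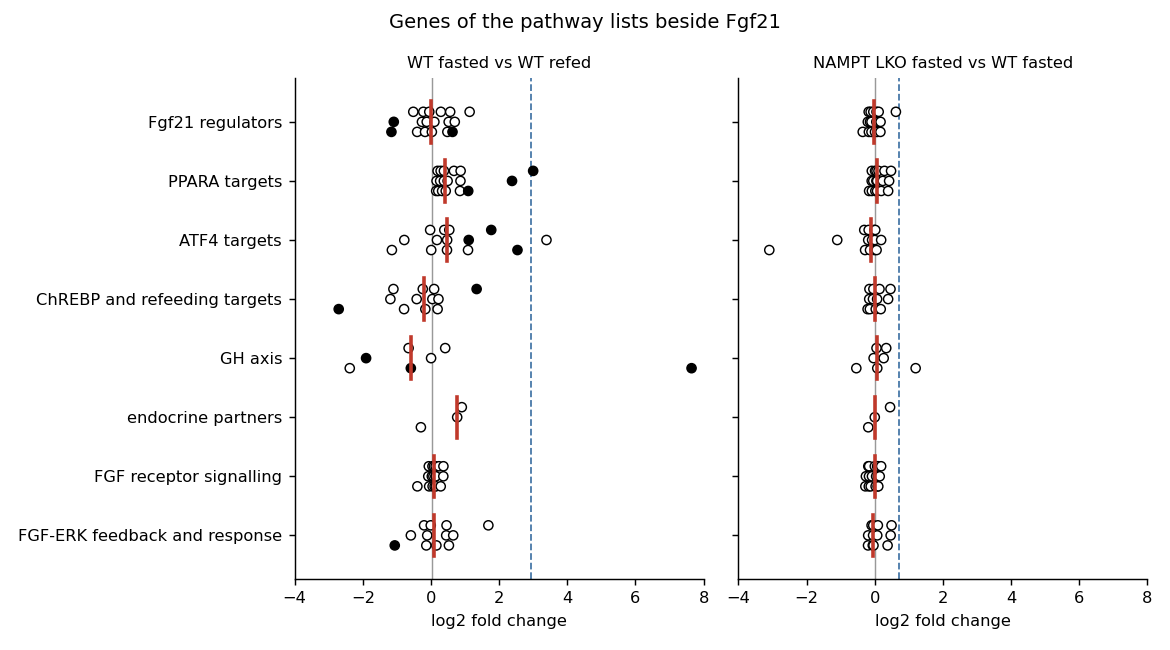
Log2 fold change (x axis) of each tested gene of 8 pathway lists (y axis; points, filled where the adjusted p is at or under 0.05), with list medians as red bars, the median of all genes as a grey line and Fgf21 as a dashed blue line. Fgf21 lies at 2.92 in the left panel, with Pdk4 at 3.00, Phgdh at 3.39 and Igfbp1 at 7.65 beyond it. Phgdh is not filled there, with 4.46 CPM in the highest WT fasted library and a median of 0.227 in that group. In the right panel Fgf21 lies at 0.71 and no list gene is filled.

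The genes whose pattern was most like that of Fgf21 over the 10 libraries were found by Pearson's r of TMM-normalized log2 CPM among 9171 genes averaging 5 CPM or more. They were Smg6 (r = 0.970), Dnmbp (0.969), Depp1 (0.962), Erbb3 (0.960) and Klhl24 (0.954). Much of each r comes from the step between refed and fasted livers, and r of the deviations from the group means was 0.756, 0.837, 0.699, 0.709 and 0.610 in the same order. All r values rest on the same 10 libraries and describe likeness only. Depp1, a gene that FOXO factors induce, was at 3.76 and 6.61 CPM in WT refed, 36.6 to 50.9 in WT fasted and 40.0 to 67.2 in NAMPT LKO fasted livers, close to Fgf21 in size, with log2 fold changes of 3.01 and 0.43 beside 2.92 and 0.71 for Fgf21. Erbb3, a receptor of the EGF family, had 1.11 and 0.13 in those comparisons.

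Klb was most like Lum (r = 0.892), Nav1 (0.886) and Cavin1 (0.863). Lum, a proteoglycan gene of fibroblasts, was at 3.48 and 4.64 CPM in WT refed, 3.22 to 6.20 in WT fasted and 5.92 to 13.7 in NAMPT LKO fasted livers. Fgfr4 was most like Ap2a2 (0.975), Mfsd12 (0.975) and Ppp4c (0.952), which all share with it a lowest value among the NAMPT LKO fasted libraries, and none of the 6 genes was called in any comparison.

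The exocrine pancreas and adipose tissue also express Fgf21, and their markers were measured in the same libraries. Of 9 exocrine pancreas markers 8 were under 1 CPM in every group, among them Cela3b, Cpa1, Prss2 and Cel at 0 counts in all 10 libraries, and the list summed to 3.72 to 7.19 CPM over all libraries, with Cela1 as the 1 marker above 1 CPM. Of 5 adipocyte markers Adipoq, Plin1, Lep and Retn were under 1 CPM in every group, and the list summed to 0.621 to 1.92 CPM. The pancreas list was at 6.66 to 7.19 CPM in WT refed, 6.54 to 6.75 in WT fasted and 3.72 to 5.40 in NAMPT LKO fasted livers. Cela1, its 1 tested marker, was called lower in NAMPT LKO fasted vs. WT refed livers (log2 fold change -0.66, 6.58% of all genes called lower). The adipocyte list was at 0.784 to 0.991 CPM in WT refed, 0.862 to 1.92 in WT fasted and 0.621 to 1.84 in NAMPT LKO fasted livers, so that its median was higher in WT fasted (1.13 CPM) than in WT refed livers (0.888 CPM), with overlapping ranges. The part of either tissue in the Fgf21 counts was not tested.

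Cholangiocyte markers, which mark bile duct cells, summed to 31.1 to 38.9 CPM in WT refed, 26.6 to 36.5 in WT fasted and 35.2 to 40.4 in NAMPT LKO fasted livers. All 5 tested markers were above 0 in NAMPT LKO vs. WT fasted livers (50.1% of all genes), with 0 called (0.00744%). Their median log2 fold change was 1.52, while the summed level had medians of 38.2 and 28.5 CPM in these groups. Fgfr2 and Fgfr3 differed there by -0.0066 and 0.25. In NAMPT LKO fasted vs. WT refed livers 1 of the 5 was called, as were 1 of 6 endothelial and 1 of 7 stellate and fibroblast markers (11.2% of all genes). Endothelial markers summed to 185 to 190, 204 to 223 and 186 to 242 CPM in the same order of groups, and blood markers to 508 to 1128, 427 to 1404 and 332 to 1294 CPM. The part of these cell types in the receptor levels was not tested.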

How the data were processed

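Poly-A RNA of pieces of liver was sequenced as single-end reads by the study. Per the submitters' processing notes, reads were aligned with STAR 2.5.1a to GRCm38 and counted with featureCounts 1.4.6-p5. The authors deposited the count of reads on each Ensembl gene, CPM values scaled by the library total, and RPKM values scaled further by exonic length. Use of strand in counting is not given in the sources used here, so overlapping genes are uncertain.

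After removal of 355 rRNA genes, a gene was tested if any 1 library exceeded 1 CPM, which 13444 genes did. TMM scaling and the quasi-likelihood test of edgeR 4.0.16 (R 4.3.3) were applied to the counts, with 1 mean per group over all 10 libraries, and p values were adjusted over all tested genes by Benjamini-Hochberg. Normalized CPM are these TMM-scaled counts. Intervals of 95% use the same fit. RPKM shares and ratios were compared by exact permutation tests in SciPy 1.17.1. Symbols were given to 40340 of 41388 genes from the GENCODE annotation of GRCm38. The fit was also run on simulated data, and the outcome of that run is not reported here. Alternatives were edgeR's exact test, DESeq2 1.42.0, voomWithQualityWeights of limma 3.58.1, other scalings and filters, removal of the GC trend (loess span 0.5), a block on the replicate number, fits restricted to the groups compared and fits that each omit 1 library. List counts without NAMPT LKO library 5 or either WT refed library were chosen after seeing the data.

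The members, lists and tests were chosen with earlier results of these data known. Named genes are the members, Nampt, the endocrine partners, up to 3 genes of each list with the lowest p in WT fasted vs. WT refed livers and up to 2 in NAMPT LKO vs. WT fasted livers, and the genes most like Fgf21 (5), Klb (3) and Fgfr4 (3). Not every gene of the lists is reported here, and the call of a gene left out is not counted in the text. WT refed libraries were numbered here by their order of listing, and the other numbers are from the labels. The labels do not say which mice shared a litter, and p values measure the spread between these samples. With total counts of 30603080 to 43434139 per library, the limit that a count of 0 allows (3 counts) covers counting error only.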

Additional observations from a re-analysis of the deposited data

How the results depend on the processing

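The difference in Fgf21 between WT fasted and WT refed livers kept its direction under all 19 alternatives and its call under 18, with log2 fold changes of 2.37 to 3.80 when 1 library was left out. The loss came without WT refed library 2 (adjusted p = 0.121), where a single refed library remained and was assumed to vary like the other groups. In NAMPT LKO vs. WT fasted livers the difference stayed above 0 and uncalled under all 21 alternatives (0.43 to 1.01, adjusted p 0.646 to 0.989), and in NAMPT LKO fasted vs. WT refed livers it stayed called under all 19 (3.08 to 4.51).

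The count of receptor components called was 0 or 1 when 1 library was left out of WT fasted vs. WT refed livers, and 1, Fgfr3, without NAMPT LKO replicate 5, by edgeR's exact test, DESeq2 and limma, after removal of the GC trend and with only the groups compared. In NAMPT LKO fasted vs. WT refed livers it was 1 by limma and after removal of the GC trend. The cause was not tested. Signs of differences near 0 turned, none of them called. Klb in WT fasted vs. WT refed livers was -0.052 by library size alone, -0.0020 without the filter, -0.00052 with only the groups compared and -0.039 to 0.075 with 1 library left out. Fgfr2 in NAMPT LKO vs. WT fasted livers was 0.014 after removal of the GC trend, 0.0020 with only the groups compared and -0.098 to 0.079 with 1 library left out. With 1 library left out, Fgfr2 ran from -0.039 to 0.28 in WT fasted and from -0.045 to 0.27 in NAMPT LKO fasted vs. WT refed livers, and Fgfr1 from -0.29 to 0.0080 in the latter.

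The replicate numbers 1 to 3 that NAMPT LKO and WT fasted libraries share did not pair them by the rule used (correlations of same-numbered deviations 0.104, 0.078 and 0.097), although each library correlated best with its own number, a hint from the data and not from the design. With the replicate block on these 6 libraries Fgf21 was 1.01 (adjusted p = 0.646) and Fgfr2 0.032, against 0.96 (adjusted p = 0.746) and 0.026 without it, and 0 genes were called in either fit.

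The number of all genes called ranged from 107 to 3331 around 946 in WT fasted vs. WT refed livers, from 0 to 24 around 1 in NAMPT LKO vs. WT fasted livers (24 by both the exact test and DESeq2, 17 without the filter) and from 227 to 4281 around 1510 in NAMPT LKO fasted vs. WT refed livers. Library size alone moved the median log2 fold change of all genes by less than 0.1. No result met the limits for a closer look, since 0 of 9 values in the NAMPT LKO fasted group stood apart by Dixon's ratio.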
